A study of Homo sapiens with 8 samples.

Results

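MYC and 39 genes of ribosome biogenesis were followed in U937 cells, an established human monocytic line. The 40 genes were taken from a list of MYC with nucleolar, snoRNP and RNA polymerase I genes, matched by Entrez number and symbol. All 40 were listed in the files, among 22653 entries, and all 40 were among the 17503 entries with enough counts to test. The list was not drawn up from a cut on measured values, but it was drawn up with earlier results of these data known. Every group carried the SLC19A1-/- deletion, and no wild-type U937 or line without a construct was analysed here. The groups were tet-SLC7A2 cells given 1 µg/mL doxycycline (dox) for 24 h, tet-SLC7A2 cells without dox, tet-SLC7A1 cells given the same dox, and tet-SLC7A1 cells without dox. Each group had 2 libraries of poly(A) RNA, numbered 1 and 2 in the labels, 8 in all. SLC7A1 and SLC7A2 are cationic amino acid transporters, and the design asks what switching on either does to the transcripts of these cells. Each transporter was carried in 1 line, so the transporter, the line and its history cannot be told apart. Without a dox-treated line that lacks a construct, the drug and the transporters cannot be told apart either.

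MYC is a transcription factor that pairs with MAX, binds the E-box CACGTG and raises transcription of many genes of growth. Among these are genes for making ribosomes. RNA polymerase I transcribes the large rRNA precursor in the nucleolus, box C/D and box H/ACA snoRNPs guide its methylation and pseudouridylation, and a succession of assembly factors folds and cuts it into the small and large subunits. MYC is deregulated in many blood cancers, and its mRNA turns over quickly.

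The promoters of 4 members are shown, picked from the comparisons of line and replicate number described further on. NIP7 and PNO1 passed the test between replicate numbers in tet-SLC7A2 cells, as did RRP1B, which matched no promoter. DDX21 had the highest fold change between lines over both conditions and between numbers over both lines. UTP20, next to DDX21 in both, is not shown. NOP2 was among the members that did not overlap between the lines. Each run holds 250 bases before and 50 after the transcript start, 5′ to 3′, from RefSeq on GRCh38.p14, with CACGTG in capitals. NIP7 is at chr16:69339522-69339821 on the plus strand, PNO1 at chr2:68157638-68157937 on the plus strand, DDX21 at chr10:68956397-68956696 on the plus strand from one of its annotated starts, and NOP2 at chr12:6568242-6568541 on the minus strand. DDX21 matched 2 promoters. The printed one was taken by the rule of most CACGTG matches, so its E-box follows in part from that choice.
NIP7: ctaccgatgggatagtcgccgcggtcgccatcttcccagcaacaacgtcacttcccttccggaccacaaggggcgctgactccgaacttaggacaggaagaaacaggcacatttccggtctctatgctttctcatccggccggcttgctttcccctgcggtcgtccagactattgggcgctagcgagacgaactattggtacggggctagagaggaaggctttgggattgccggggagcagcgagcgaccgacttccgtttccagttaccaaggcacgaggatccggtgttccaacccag
PNO1: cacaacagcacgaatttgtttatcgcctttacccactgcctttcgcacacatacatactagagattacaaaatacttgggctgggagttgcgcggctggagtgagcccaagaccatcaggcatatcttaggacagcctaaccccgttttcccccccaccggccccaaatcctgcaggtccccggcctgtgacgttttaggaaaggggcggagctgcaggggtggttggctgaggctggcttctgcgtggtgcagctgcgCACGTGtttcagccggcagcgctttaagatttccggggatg
DDX21: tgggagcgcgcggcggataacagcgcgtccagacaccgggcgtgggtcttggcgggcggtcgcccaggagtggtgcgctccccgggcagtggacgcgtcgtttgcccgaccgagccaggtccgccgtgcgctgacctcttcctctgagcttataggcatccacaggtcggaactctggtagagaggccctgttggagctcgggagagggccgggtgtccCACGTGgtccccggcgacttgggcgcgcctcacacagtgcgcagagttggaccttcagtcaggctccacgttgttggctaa
NOP2: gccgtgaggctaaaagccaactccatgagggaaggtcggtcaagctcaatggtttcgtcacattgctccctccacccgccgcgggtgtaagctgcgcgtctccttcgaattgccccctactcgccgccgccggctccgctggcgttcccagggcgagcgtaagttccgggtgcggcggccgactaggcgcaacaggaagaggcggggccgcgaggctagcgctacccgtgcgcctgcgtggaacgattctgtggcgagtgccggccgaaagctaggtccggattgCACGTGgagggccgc
PNO1 held the E-box at position 10 and NOP2 at position 36 after the start, DDX21 held it 31 bases before the start, and NIP7 held no such letters in this window. The motif searched was CACGTG, which reads the same on both strands. Of the 40 members 32 matched a promoter in the RefSeq table, and 16 of these held at least 1 CACGTG in a promoter. The share was 13.1% of 9564 tested genes with a promoter and 8.77% of all 27305 gene symbols with a promoter in the table, each symbol counted once. These are matches of letters and not measured binding.

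Library totals ran from 17309132 to 18441833 expected counts, and members had from 274 counts (UTP15) to 38100 counts (NPM1) in a library, so counting error was small beside the spread between libraries. Flag-tagged SLC7A2 transcript, counted on an entry of its own, stood at 4670 and 265 CPM (counts scaled to the TMM-adjusted library total) in the tet-SLC7A2 dox libraries numbered 2 and 1, against 9.46 and 0.570 CPM without dox. Flag-tagged SLC7A1 transcript stood at 378 and 840 CPM in the tet-SLC7A1 dox libraries numbered 2 and 1, against 0 and 0.290 CPM without dox. SLC19A1 transcript stood at 124 to 159.8 CPM in all 8 libraries, and with no wild type here its level checks nothing about the deletion. The tet-SLC7A2 libraries numbered 2 stood apart on the first principal component, at 68.1 with dox and 55.3 without, against -52.7 to -3.67 for the other 6. Myeloid markers summed to 1440 to 2524 CPM over the 8 libraries, T and B lymphocyte markers to 13.4 to 24.1 CPM, nearly all of it CD79A, and epithelial markers to 2.14 to 6.68 CPM. CD3E, CD3G and MS4A1 were not listed in any library. Fibroblast markers summed to 84.6 CPM in the tet-SLC7A2 library without dox numbered 2 and to 4.67 to 12.4 CPM in the other 7.

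By level per length, the members spanned nucleolar proteins of very high level and assembly factors of middling level. In the deposited TPM (which allows for gene length), NPM1, a nucleolar chaperone and export factor, averaged 2005 ± 264 TPM (SD, n = 8 libraries of all groups). FBL, the methyltransferase of box C/D snoRNPs, averaged 947 ± 75.3 TPM, and the box H/ACA proteins NOP10 and NHP2 averaged 658 and 619 TPM. NCL, nucleolin, followed at 432 TPM. MYC averaged 156 ± 12.4 TPM, with a range of 133 to 171 TPM, the eighth of the 40, and stood above 94.5% of the entries with a symbol. The lowest members were UTP15 and UTP20, of the small subunit processome, at 4.75 ± 1.22 and 4.74 ± 1.57 TPM, whose ranges of 3.53 to 7.16 and 2.52 to 6.97 TPM overlap. Even these stood above 51.1% of entries with a symbol.

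Some of these levels depend on how reads were shared out between similar or nested genes. The annotation places 24 snoRNA genes inside 7 members, with 6 in GNL3, 5 in NOP56, 4 in NOP58, 3 each in NCL and WDR43, 2 in DKC1 and 1 in POLR1C. It names 61 pseudogenes for 9 members, of which 45 belong to NPM1. The deposited counts are RSEM's expected counts, which are not always whole. The settings that shared out reads fitting more than 1 copy, and whether strand was used, the sources used here do not give.

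**Figure D1:**
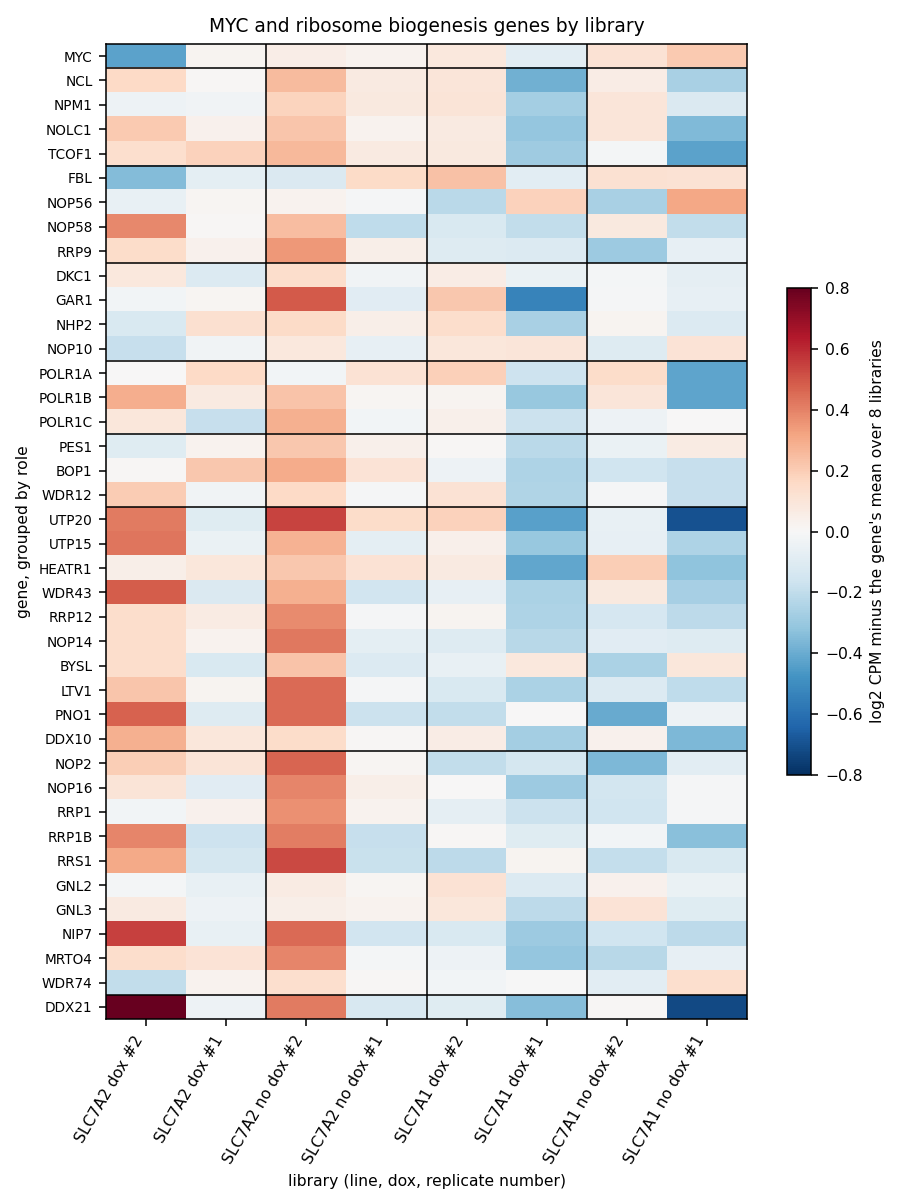
Log2 CPM (prior count of 2) of each of the 40 members minus its mean over the 8 libraries, by library, with members grouped by role and tet-SLC7A2 libraries on the left. The tet-SLC7A2 library without dox numbered 2 holds the highest value of 24 members, and the tet-SLC7A1 dox library numbered 1 the lowest value of 18.

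With dox, MYC was lower in every same-numbered pair, by an amount that did not pass the test. MYC had 351 and 480 CPM in tet-SLC7A2 cells with dox, against 491 and 483 CPM without. In tet-SLC7A1 cells MYC had 501 and 446 CPM with dox, against 512 and 548 CPM without. In both lines the dox libraries lay below those without dox, with no overlap. Of all entries 9.70% did so in the tet-SLC7A2 line and 11.0% in the tet-SLC7A1 line. The share that did so in both lines is not given here. In bulk RNA, fewer cells that express a gene and less RNA per cell cannot be told apart. By pair, the log2 difference of dox minus no dox was -0.48 and -0.01 in the tet-SLC7A2 pairs numbered 2 and 1, and -0.03 and -0.30 in the tet-SLC7A1 pairs numbered 2 and 1. The log2 fold change was -0.20 ± 0.11 over both lines (SE, 4 libraries in each arm; edgeR quasi-likelihood test, adjusted p = 1.00). MYC was the lowest of the 40 members there. Within the lines it was -0.23 ± 0.17 for tet-SLC7A2 and -0.16 ± 0.17 for tet-SLC7A1 (adjusted p = 1.00 by edgeR in each). The difference between the lines in this effect was -0.06 ± 0.23. Without the tet-SLC7A2 dox library numbered 2, which also had the highest Flag-tagged SLC7A2, the tet-SLC7A2 value was -0.02. The part of the construct level in MYC's value was not tested.

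The ribosome biogenesis genes did not pass the test for dox in either line. By edgeR 0 of 40 members had an adjusted p under 0.05 for dox in the tet-SLC7A2 line, in the tet-SLC7A1 line, in their difference or in both lines together, beside 0% of all 17503 entries in each. The induced Flag-tagged SLC7A1 and SLC7A2 transcripts were among these entries, so edgeR did not call them for dox either. A member not called may thus still have changed. At an unadjusted p under 0.05 there were also 0 members in each, beside 1.28%, 1.27%, 1.27% and 1.49% of all entries in the order given. DESeq2 called 0 members in each, beside 0.0571%, 0.0514%, 0.114% and 0.00571%. These fits do not pair same-numbered libraries, so the spread between numbers stays in their error. With that pairing (the replicate block) 0 members passed the adjusted test in each. In the same order edgeR then called 0.00571%, 0.0114%, 0% and 0.0171% of all entries, and DESeq2 0.149%, 0.257%, 0.120% and 0.606%. Before adjustment UTP20 passed at 0.05 by edgeR in tet-SLC7A1 cells (0.25 ± 0.09) and in the difference (-0.44 ± 0.13). By DESeq2 UTP20 passed in the difference. FBL, NPM1 and DDX21 passed by DESeq2 in tet-SLC7A2 cells, and MYC, NPM1, HEATR1 and DDX21 over both lines (DDX21 higher, the others lower). The share of all entries at this unadjusted cut is not given for the block. These passes thus cannot be set against a background and are not read as changes. The median log2 fold change of the 40 was -0.09 in tet-SLC7A2 cells, with 10 positive and 30 negative, and 0.00 in tet-SLC7A1 cells, with 20 positive and 20 negative. Over 4933 well-expressed genes, which had a symbol and averaged 5 or more on the log2 CPM scale, the median was -0.03 in tet-SLC7A2 cells and 0.02 in tet-SLC7A1 cells. By pair of libraries the member median of dox minus no dox was -0.15 and 0.02 in the tet-SLC7A2 pairs numbered 2 and 1, and 0.07 and -0.06 in the tet-SLC7A1 pairs numbered 2 and 1, so the pairs of a line had opposite signs. Without the tet-SLC7A2 library without dox numbered 2 the tet-SLC7A2 median was 0.06. In tet-SLC7A1 cells it was -0.12 without the dox library numbered 2 and 0.10 without the dox library numbered 1. The members' range was -0.23 to 0.34 in tet-SLC7A2 cells and -0.16 to 0.25 in tet-SLC7A1 cells.

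By role, the values with dox were small and mixed. HEATR1, needed for RNA polymerase I transcription and small subunit processing, was with MYC the other member lower in 4 of 4 pairs, beside 7.07% of all entries. HEATR1 had 125 and 128 CPM in tet-SLC7A2 cells with dox, against 140 and 131 CPM without, and 127 and 90.4 CPM in tet-SLC7A1 cells with dox, against 138 and 96.3 CPM without. Its log2 fold change was -0.11 ± 0.14 over both lines. The largest subunit of RNA polymerase I, POLR1A, with PNO1 and DDX10, of small subunit assembly, were higher in 4 of 4 pairs, beside 7.70% of all entries. POLR1A had 89.1 and 99.5 CPM in tet-SLC7A2 cells with dox, against 87.8 and 96.4 CPM without, and 101 and 79.3 CPM in tet-SLC7A1 cells with dox, against 98.7 and 66.6 CPM without. In all of these except MYC the groups overlapped in at least 1 line.

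In the tet-SLC7A2 line 5 members, MYC, NPM1, PES1, HEATR1 and GNL2, lay lower with dox without overlap, beside 9.70% of all entries, and in the tet-SLC7A1 line MYC alone did, beside 11.0%. The 4 box H/ACA proteins were all negative in the tet-SLC7A2 line, at -0.23 to -0.07. GAR1 was the lowest of the 40 there, with 24.5 and 25.2 CPM with dox, against 35.0 and 23.4 CPM without. Its dox values lay between the 2 libraries without dox. FBL had 434 and 521 CPM with dox in tet-SLC7A2 cells, against 508 and 612 CPM without, and these groups overlapped. The highest values in that line were 0.34 ± 0.36 for DDX21, an RNA helicase of RNA polymerase I transcription and snoRNP action, and 0.17 ± 0.21 for NOP58, a core box C/D protein. NOP58 had 103 and 79.4 CPM with dox, against 93.7 and 68.5 CPM without. In both conditions the library numbered 2 was the higher one.

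**Figure D2:**
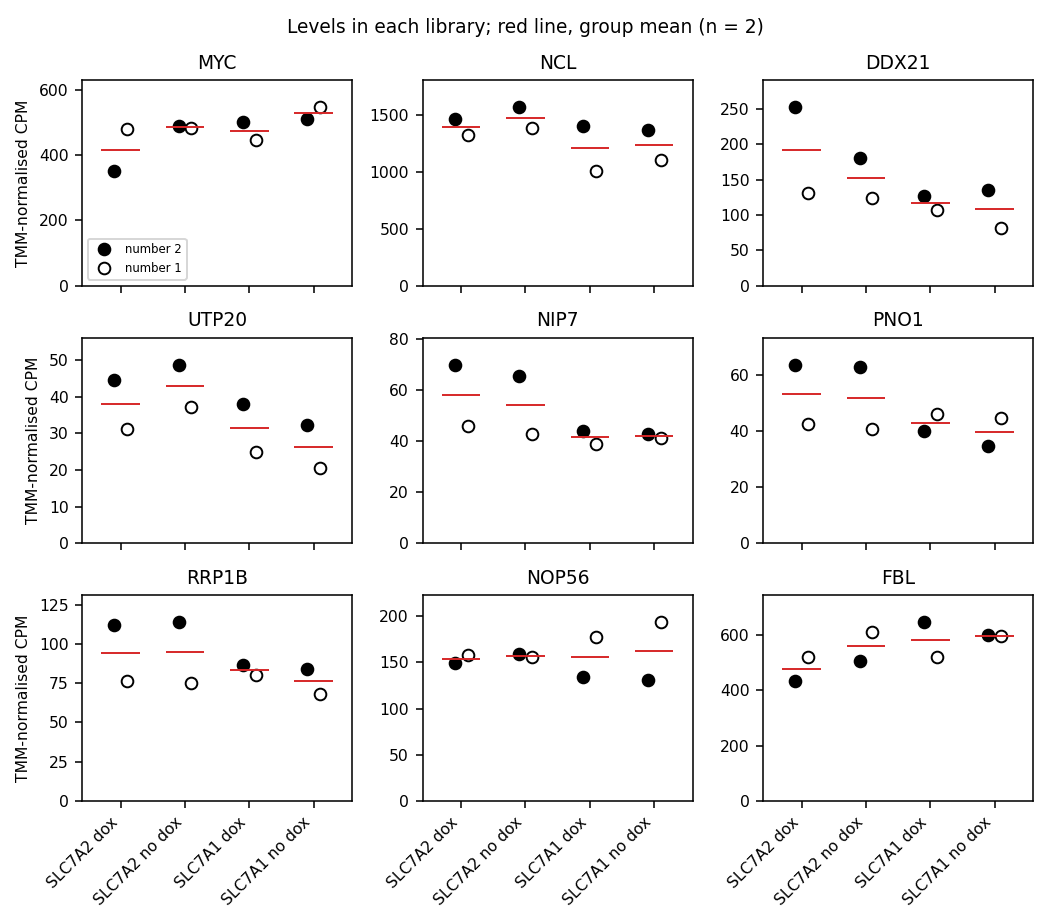
TMM-normalised CPM of 9 members in each library, by group, with filled circles for libraries numbered 2, open circles for those numbered 1 and a red line for the mean of the 2. MYC has its lowest value, 351 CPM, in the tet-SLC7A2 dox library numbered 2, where DDX21 has its highest, 253 CPM.

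Between the lines, most ribosome biogenesis genes stood higher in tet-SLC7A2 cells and MYC did not. With dox as a term, 35 of 40 members were positive for tet-SLC7A2 over tet-SLC7A1, with a median log2 fold change of 0.23 against 0.04 over the 4933 genes, of which 2809 were positive. The same medians were 0.25 against 0.06 without dox (37 of 40 positive) and 0.19 against 0.01 with dox (33 of 40 positive). None passed the adjusted test: by edgeR 0 of 40 in each of the 3 comparisons, beside 0% of all entries. At an unadjusted p under 0.05 there were 10 members over both conditions, all higher, beside 6.20% of all entries higher. There were 3 members without dox, beside 5.32% in either direction, and 0 with dox, beside 3.30%. DESeq2 called 1 member over both conditions, BOP1, beside 1.99% of all entries, and 0 without dox, beside 0.200%, and 0 with dox, beside 0.137%. With the replicate block DESeq2 called 13, 1 and 1 members in that order, beside 8.46%, 1.93% and 1.37%. With the same block edgeR called 0 in each, beside 1.46%, 0% and 0.0229%. This block takes numbers to pair libraries across lines, which is not shown. All of these comparisons between lines share their libraries, so they are not separate evidence. Without both tet-SLC7A2 libraries numbered 2 the median was 0.08 over both conditions and 0.08 without dox.

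Of the 40 members 6 stood higher in all 4 tet-SLC7A2 libraries than in all 4 tet-SLC7A1 libraries, beside 4.35% of all entries, and 0 stood lower, beside 5.11%. They were RRP9 of the U3 snoRNP, BOP1 of the PES1-BOP1-WDR12 complex that processes the large subunit precursor, NOP14 and LTV1 of small subunit assembly, and NOP2 and MRTO4 of large subunit assembly. BOP1 had 341, 393, 417 and 365 CPM in tet-SLC7A2 cells, against 330, 286, 304 and 299 CPM in tet-SLC7A1 cells. Its log2 fold change was 0.31 ± 0.09 (SE, 4 libraries a line; edgeR adjusted p = 0.32). NOP2, an rRNA cytosine methyltransferase, had 148, 139, 179 and 131 CPM in tet-SLC7A2 cells, against 113, 117, 101 and 122 CPM in tet-SLC7A1 cells. The lines differed there by 0.40 ± 0.12 on the log2 scale (adjusted p = 0.32 by edgeR). LTV1, an export adaptor of the pre-40S particle, differed by 0.35 ± 0.12, and MRTO4, which holds the place of P0 in the pre-60S stalk, by 0.32 ± 0.11.

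The highest values between the lines belonged to a helicase and a processome scaffold. DDX21 had 253 and 131 CPM in tet-SLC7A2 dox libraries and 180 and 123 CPM without dox, against 126 and 106 CPM in tet-SLC7A1 dox libraries and 136 and 81.8 CPM without. UTP20 had 44.7 and 31.3 CPM in tet-SLC7A2 dox libraries and 48.8 and 37.1 CPM without dox, against 38.0 and 24.8 CPM in tet-SLC7A1 dox libraries and 32.1 and 20.6 CPM without. The lines overlapped for both genes. The log2 fold changes were 0.60 ± 0.24 for DDX21 and 0.49 ± 0.22 for UTP20 (adjusted p = 0.38 and 0.40 by edgeR).

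By role, all 10 small subunit factors were positive (0.07 to 0.49, median 0.28), as were 9 of 10 large subunit factors (-0.01 to 0.42, median 0.24), the 4 abundant nucleolar proteins (0.08 to 0.31), the 3 RNA polymerase I subunits (0.09 to 0.29) and the 3 proteins of the PES1-BOP1-WDR12 complex (0.09 to 0.31). The snoRNP proteins were mixed, with 2 of 4 box C/D and 3 of 4 box H/ACA proteins positive. FBL was the lowest member, at -0.19 ± 0.11, and MYC the next, at -0.16 ± 0.11. MYC had 351, 480, 491 and 483 CPM in tet-SLC7A2 cells, against 501, 446, 512 and 548 CPM in tet-SLC7A1 cells, so that the lines overlapped. NOP10 stood lower in tet-SLC7A2 cells with dox without overlap, beside 16.0% of all entries. It had 115 and 128 CPM, against 139 and 139 CPM in tet-SLC7A1 cells with dox. In the same comparison RRP9, BOP1, NOP14, LTV1, NOP2 and MRTO4 stood higher without overlap, as did others, DDX21 and NIP7 among them. The share of all entries higher in this way is not given here.

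**Figure D3:**
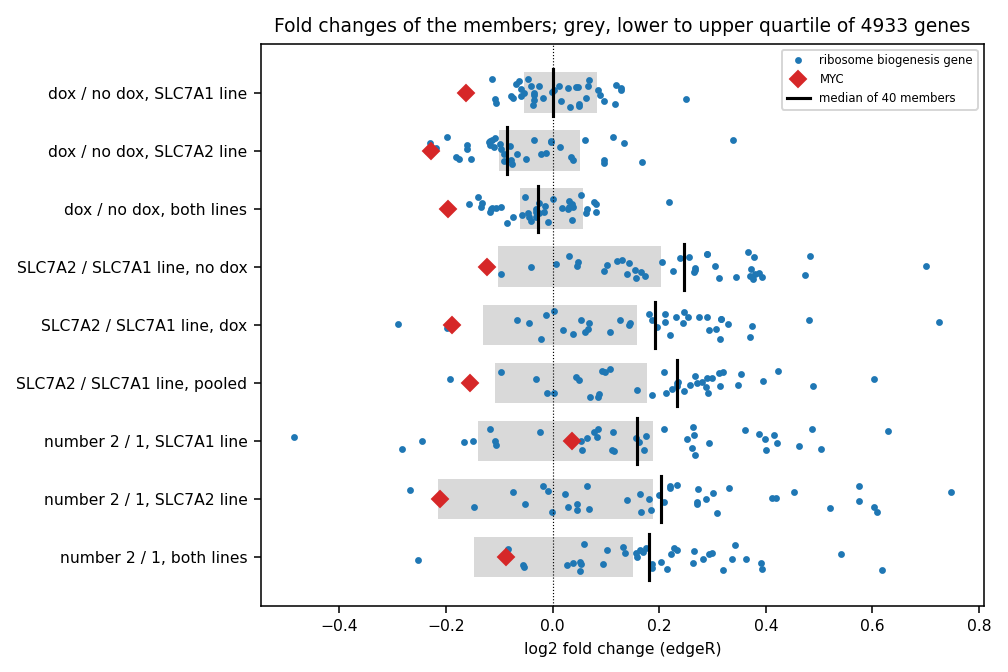
Log2 fold change of each of 39 ribosome biogenesis genes (blue) and MYC (red) in 9 comparisons, with the black bar at the median of the 40 and the grey band from the lower to the upper quartile of 4933 well-expressed genes. The medians lie inside the grey band for dox and for numbers in the tet-SLC7A1 line, and above its upper edge in the other 5 comparisons, while MYC is below 0 in all but the tet-SLC7A1 comparison of numbers.

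The members also differed between libraries of 1 group. Nothing in the labels says that a replicate number marks a batch, day or culture, so the comparison of numbers describes spread within groups. That spread stays in the error of the comparisons of dox and line, unless the replicate block pairs same-numbered libraries. With group as a term, number 2 over number 1 had a median log2 fold change of 0.18 over the 40 members, 35 of them positive, against 0.00 over the 4933 genes. In tet-SLC7A2 cells the median was 0.20 (32 positive) and in tet-SLC7A1 cells 0.16 (31 positive). By pair of libraries the median difference of number 2 minus number 1 was 0.11 and 0.26 in tet-SLC7A2 cells with and without dox, and 0.23 and 0.07 in tet-SLC7A1 cells with and without dox. The medians between numbers, 0.16 to 0.20, thus lay near those between the lines, 0.19 to 0.25, while those with dox lay between -0.09 and 0.00.

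In tet-SLC7A2 cells 3 members rose in the libraries numbered 2 by edgeR (adjusted p under 0.05), and 0 fell, beside 3.27% of all entries in either direction. All 3 are assembly factors. NIP7, of pre-60S and pre-rRNA processing (chr16:69339772-69343106), had 70.0 and 65.5 CPM in the libraries numbered 2 with and without dox, against 45.9 and 43.0 CPM in those numbered 1. Its log2 fold change was 0.61 ± 0.08 (SE, 2 libraries in each arm, fitted over 8; edgeR adjusted p = 0.044). PNO1, a KH-domain factor of the pre-40S particle (chr2:68157888-68176238), had 63.5 and 62.8 CPM in the libraries numbered 2, against 42.6 and 40.6 CPM in those numbered 1. Its log2 fold change was 0.60 ± 0.09 (adjusted p = 0.045 by edgeR). RRP1B, a nucleolar protein of pre-60S processing (chr21:43659560-43696079), had 112 and 114 CPM in the libraries numbered 2, against 76.5 and 75.3 CPM in those numbered 1, a log2 fold change of 0.57 ± 0.09 (adjusted p = 0.046 by edgeR). The gene spans are those of GENCODE release 29 on hg38. For each of the 3 the numbers did not overlap, and the dox and no-dox libraries of 1 number lay close together. Each of these calls was lost, with 0 members called, when any 1 of the 4 tet-SLC7A2 libraries was left out. At an unadjusted p under 0.05 there were 15 members, 14 higher and FBL lower, beside 28.1% of all entries. DESeq2 called 13 members, beside 15.8% of all entries.

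In tet-SLC7A1 cells other members led. By edgeR 0 members passed, beside 0.0514% of all entries. At an unadjusted p under 0.05 there were 16 members, 13 higher and 3 lower, beside 19.8%, and DESeq2 called 12, beside 8.08%. UTP20, with the highest value, had 38.0 and 32.1 CPM in the libraries numbered 2 with and without dox, against 24.8 and 20.6 CPM in those numbered 1 (0.63 ± 0.09, adjusted p = 0.086 by edgeR). HEATR1 had 127 and 138 CPM in the libraries numbered 2, against 90.4 and 96.3 CPM in those numbered 1 (0.50 ± 0.08, adjusted p = 0.093 by edgeR). NOP56, the box C/D partner of NOP58, went the other way, with 135 and 130.4 CPM in the libraries numbered 2, against 178 and 194 CPM in those numbered 1 (-0.48 ± 0.09, adjusted p = 0.10 by edgeR). PNO1 also stood lower there, with 39.9 and 34.5 CPM in the libraries numbered 2, against 45.9 and 44.5 CPM in those numbered 1.

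**Figure D4:**
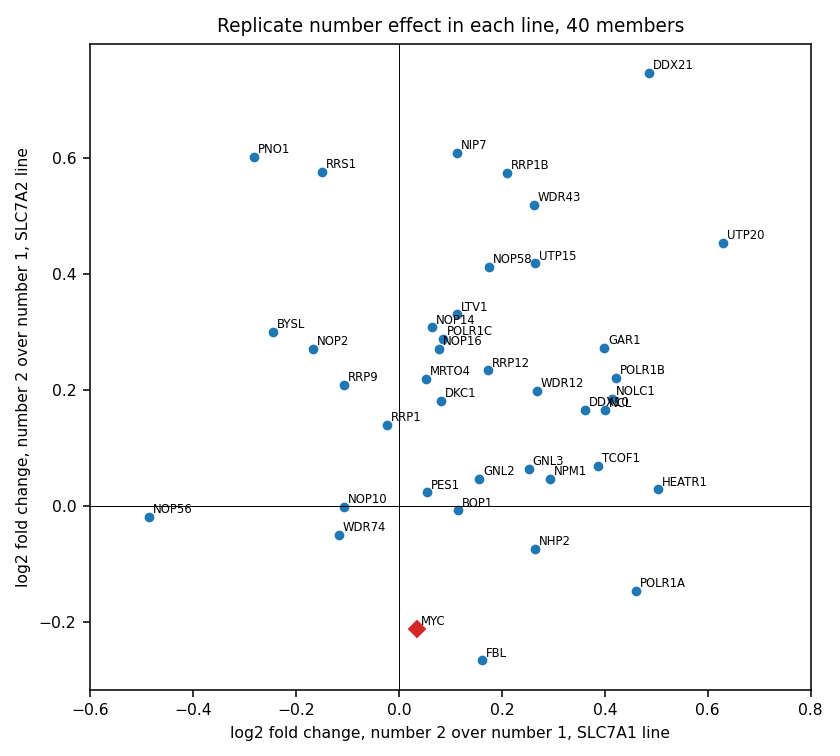
Log2 fold change of number 2 over number 1 in tet-SLC7A2 cells (vertical) against that in tet-SLC7A1 cells (horizontal), 1 point per member, with MYC in red. Most points lie at the upper right with no slope among them, and PNO1, RRS1, BYSL and NOP2 lie at the upper left.

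The size of the number effect in one line did not go with its size in the other. Across the 40 members Pearson's r was 0.03 and Spearman's rho 0.01, a description across genes that share libraries. BYSL, PNO1, NOP2 and RRS1 were lower in both tet-SLC7A1 libraries numbered 2 and higher in both tet-SLC7A2 libraries numbered 2, beside 9.92% of all entries. FBL and POLR1A had the opposite pattern, beside 8.98%. The test of this difference between lines called 0 members by edgeR, beside 0.0743% of all entries, with 7 members higher and 3 lower at an unadjusted p under 0.05, beside 9.46% and 10.5%. DESeq2 called 7, beside 7.60%. The largest were PNO1 at 0.89 ± 0.13 (adjusted p = 0.078 by edgeR) and RRS1, a 5S particle assembly factor, at 0.72 ± 0.14 (adjusted p = 0.11 by edgeR). RRS1 had 92.8 and 108 CPM in tet-SLC7A2 libraries numbered 2, against 68.1 and 66.4 CPM in those numbered 1. In tet-SLC7A1 cells it had 65.2 and 65.9 CPM in libraries numbered 2, against 76.3 and 69.1 CPM in those numbered 1.

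Over all 4 groups, 18 of 40 members were higher in number 2 in every group, beside 14.7% of all entries, and 0 were lower in every group, beside 14.7%. By edgeR 0 passed over both lines, beside 0.00571% of all entries, with 13 at an unadjusted p under 0.05, all higher, beside 9.78% of entries higher. DESeq2 called 7, beside 6.32%: NCL, NOLC1, POLR1B, UTP20, WDR43, RRP1B and DDX21. DDX21 had the highest value, 0.62 ± 0.12 (adjusted p = 0.14 by edgeR). NCL had 1467, 1569, 1405 and 1371 CPM in libraries numbered 2, against 1325, 1382, 1006 and 1100 CPM in those numbered 1, and MYC had 351, 491, 501 and 512 CPM against 480, 483, 446 and 548 CPM. For NCL the lowest library numbered 2 lay just under the highest numbered 1, and for MYC the numbers overlapped throughout.

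These differences went with transcript composition and, less evenly, with length. Transcript GC content of the members ran from 40.2% to 65.7%. Across the 40 members the number effect over both lines had a Spearman rho of -0.66 with GC and 0.52 with length, and across the expressed genes -0.58 with GC (4818 of 4933 with a value) and 0.23 with length. For the lines rho with GC was -0.26 across members and -0.19 across the expressed genes, and for dox in the tet-SLC7A2 line -0.55 and -0.39. With length rho between the lines was 0.40 across members and 0.09 across the expressed genes. Between numbers the same pair was 0.19 and 0.19 in tet-SLC7A2 cells, and 0.54 and 0.19 in tet-SLC7A1 cells. After offsets that took out each library's trend over GC, an addition made after seeing the data, the member medians were 0.16 for numbers, 0.16 for lines and -0.05 for dox in the tet-SLC7A2 line. With these offsets edgeR called 10 members between numbers in tet-SLC7A2 cells, beside 18.1% of all 11174 entries tested, and 5 in tet-SLC7A1 cells, beside 3.87%. That fit held only entries with a symbol. On entries with a symbol and no offsets, edgeR called 8, beside 17.6%, and 5, beside 4.63%.

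**Figure D5:**
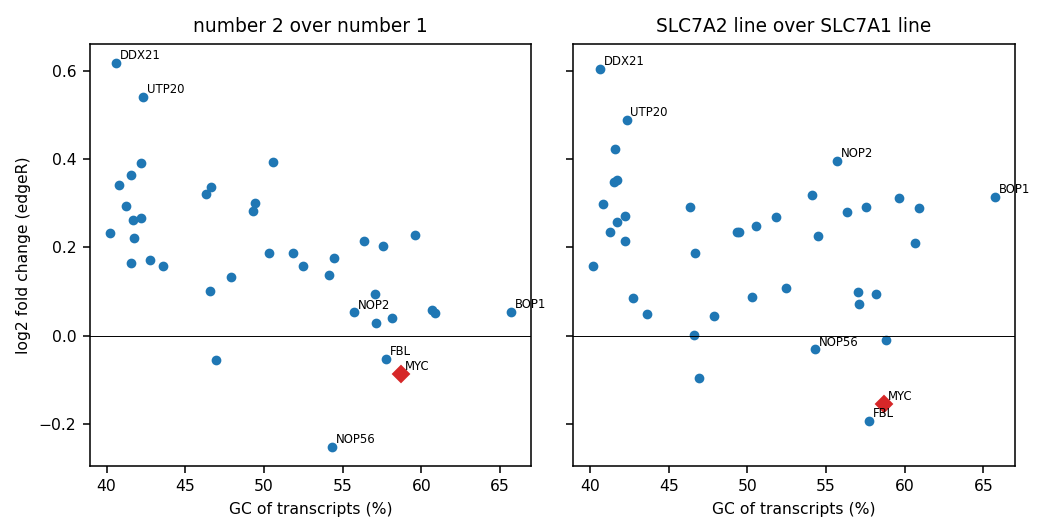
Log2 fold change of each member against the GC content of its transcripts, for number 2 over number 1 (left) and tet-SLC7A2 over tet-SLC7A1 (right), with MYC in red. On the left the values are lower at higher GC (Spearman's rho -0.66), and on the right less so (rho -0.26). There GC-rich BOP1 and NOP2 stand as high as many GC-poor members, while GC-rich FBL and MYC stand lowest.

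Other quantities differed between the same libraries. Cytosolic ribosomal protein genes, the products that the assembly factors build into ribosomes, summed lower in libraries numbered 2 in all 4 groups. Over 45 genes the sum was 69382 and 78524 CPM in the tet-SLC7A2 libraries numbered 2 with and without dox, against 93816 and 96444 CPM in those numbered 1. In tet-SLC7A1 cells the sums were 110686 and 100538 CPM in libraries numbered 2, against 112052 and 126084 CPM in those numbered 1. All 45 were negative for tet-SLC7A2 over tet-SLC7A1 (median -0.39), and RPL4, RPL15, RPLP0 and RPLP1 fell in tet-SLC7A2 libraries numbered 2 by edgeR. The highest of the ribosomal protein genes, RPS2, did not pass there. Myeloid markers summed lower in libraries numbered 2 in all 4 groups, at 1440 and 1792 CPM in tet-SLC7A2 cells with and without dox, against 2193 and 2259 CPM in those numbered 1, and at 1904 and 1926 CPM in tet-SLC7A1 cells, against 1975 and 2524 CPM. Without ELANE the tet-SLC7A2 sums were 1171 and 1398 CPM in libraries numbered 2, against 1307 and 1338 CPM in those numbered 1, so that they overlapped. Of these 12 markers ELANE, neutrophil elastase, fell there by edgeR, with 269 and 394 CPM in the libraries numbered 2, against 886 and 921 CPM in those numbered 1, and FCER1G, an Fc receptor chain, rose. COL1A1, the highest of the fibroblast markers, had 24.5 CPM in the tet-SLC7A2 library without dox numbered 2, and KRT8, the highest of the epithelial markers, had 3.85 CPM in it. Proliferation markers, led by MCM7, summed to 5343 to 5663 CPM in all 8 libraries. The part of RNA composition, of GC and of these libraries in the members' values was not tested further.

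Neighbouring gene lists gave a setting for the members. Of 66 other ribosome biogenesis genes tested, 61 were positive between the lines (median 0.21) and 54 between numbers (median 0.19). By edgeR 3 of them, RRP15, UTP11 and TEX10, rose in tet-SLC7A2 libraries numbered 2. EIF6, the subunit anti-association factor and the highest of that list, did not pass in any comparison. Of 20 MYC targets outside the nucleolus, led by the chaperonin HSPD1, 16 were positive between the lines (median 0.17) and 16 between numbers (median 0.15), and 0 passed by edgeR. Of 11 other genes of RNA polymerase I transcription 7 were positive between the lines (median 0.05), and UBTF, the upstream binding factor, had 185 and 204 CPM in tet-SLC7A2 dox libraries and 211 and 195 CPM without dox, against 184 and 178 CPM in tet-SLC7A1 dox libraries and 173 and 184 CPM without. Of 12 genes of the MYC network 5 were positive between the lines (median -0.07). MAX, the partner of MYC, stood at 77.9 to 93.5 CPM in all 8 libraries. With dox over both lines 20 of the 66, 8 of the 20, 5 of the 11 and 8 of the 12 were positive, and 0 of each list passed by edgeR.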

How the data were processed

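Poly(A) RNA of 8 U937 libraries was read as paired 150-base reads, per the labels' protocols, from RNA with a RIN above 7. The authors deposited for each gene RSEM's expected count (per the file headers; not always whole), with FPKM, TPM and gene length. FPKM values in the deposited files were not used, TPM values as deposited served for levels and 1 alternative, and the deposited gene lengths for the check of length. Named in the submitters' processing notes, without role or order, are the build hg38, RSEM 1.3.1, Bowtie2 2.3.4.3, HISAT and DESeq2 1.4.5. An entry missing from a file was taken as 0. The 22653 entries were 15386 Entrez numbers, 15340 of them with a symbol, 7264 assembled loci (6.56% to 7.25% of the counts of a library) and 3 construct entries.

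Expected counts were rounded, filtered with filterByExpr (minimum count 10, minimum total 15), TMM-scaled and fitted in edgeR 4.0.16 (R 4.3.3). The quasi-likelihood test gave p-values, adjusted by Benjamini-Hochberg over all 17503 entries, with a threshold of 0.05. Dividing the log2 fold change by the root of F gave its SE. Groups and numbers come from the sample titles. Effects of dox and of line used the 4 group means over 8 libraries, effects over both lines or conditions an additive fit, and effects of number a term for number within each line. There were 11 comparisons. Nothing states that libraries of a group came from separate cultures, so p-values measure only the spread between these libraries, which may be technical. Libraries of a group differed by more than sampling noise (chi-square per gene 20.6 to 45.6). A floor of 3 counts is 0.163 to 0.173 CPM and covers counting error only. Same-numbered libraries of a line deviated together (correlation 0.31 in tet-SLC7A2 and 0.20 in tet-SLC7A1 over 17503 entries), and those of different lines by -0.02 to 0.15. Over 5355 entries with a mean log2 CPM from 5 up, the correlations were 0.77, 0.70 and 0.04 to 0.42. Across lines not every pair passed 0.1 on either set, so the numbers were taken to pair libraries within a line only.

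Alternatives were DESeq2 1.42.0, other scalings, no filter, entries with a symbol alone, limma 3.58.1 on log2(TPM + 1), left-out libraries and the replicate block, with GC offsets added after seeing the data. The fits were tested on simulated data whose changes were larger than any dox effect of the members. That test does not bear on whether the fits find effects this small. The members, the other lists and the alternatives were chosen with earlier results of these data known. Named genes are MYC, called members, the 2 highest and 2 lowest members of each comparison and, of each other list, called genes or the one of highest mean CPM; others are named for where their groups do not overlap, seen after their values.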

Additional observations from a re-analysis of the deposited data

How the results depend on the processing

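Tests are limited by 2 libraries a group. For dox and line, edgeR called 0 members under each scaling, filter and left-out library, and the cause of each change given here was not tested. DESeq2 called 1 member between the lines over both conditions, 7 between numbers over both lines, 12 in tet-SLC7A1 cells, 13 in tet-SLC7A2 cells and 7 for the difference of these number effects, beside 1.99%, 6.32%, 8.08%, 15.8% and 7.60% of entries. For numbers in tet-SLC7A1 cells, in tet-SLC7A2 cells and for their difference, edgeR on entries with a symbol called 5, 8 and 3 members, beside 4.63%, 17.6% and 5.20% of entries. Limma on TPM called 2, 15 and 3, beside 0.777%, 7.38% and 1.38%, and edgeR with GC offsets 5, 10 and 5, beside 3.87%, 18.1% and 8.63%. With the replicate block, which pairs dox with no dox within a line, edgeR called 0 members for dox, beside 0% to 0.0171% of entries. The MYC effect of dox over both lines was then -0.20. Across lines, where numbers are not shown to pair, the block in edgeR also gave 0 (beside 1.46% of entries over both conditions), DESeq2 with the replicate block gave 1 without dox (UTP20), 1 with dox (DDX21) and 13 over both conditions, beside 1.93%, 1.37% and 8.46% of entries, and GC offsets with the replicate block gave 4 over both conditions, beside 8.41%.

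On TPM the member median was 0.35 for lines with dox, 0.36 for lines over both conditions and 0.34 for numbers in tet-SLC7A2 cells, where this scaling moved the median of all entries to 0.11, 0.088 and 0.094. Without both tet-SLC7A2 libraries numbered 2 it was 0.024 for dox in tet-SLC7A2 cells, 0.077 for lines without dox and 0.082 over both conditions. The log2 fold change of MYC then turned to 0.16 for the difference of dox effects, 0.021 for lines with dox and 0.036 for numbers. With GC offsets it turned to 0.011 for the difference of dox effects (0.0089 with the replicate block) and 0.017 for numbers. Leaving out 1 library at a time, the median ran from -0.12 to 0.10 for dox in tet-SLC7A1 cells, -0.19 to 0.064 for dox in tet-SLC7A2 cells and -0.18 to 0.049 for their difference. It ran from 0.079 to 0.36 for lines without dox, 0.076 to 0.30 for lines with dox and -0.046 to 0.15 for the difference of number effects. Calls between numbers in tet-SLC7A2 cells ran from 0 to 6. The MYC value ran from -0.30 to 0.15 for the difference of dox effects, -0.43 to 0.021 for lines with dox, -0.17 to 0.032 for numbers, -0.097 to 0.17 in tet-SLC7A1 cells and -0.45 to 0.020 in tet-SLC7A2 cells.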
